A study of Mus musculus with 18 samples.

Results

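Natural killer cells and cytotoxic T cells kill by releasing granules that hold granzymes, a family of serine proteases, and perforin, which lets them into the target cell. They can also kill through FAS ligand, and they secrete interferon gamma and the chemokine CCL5. Blood stem cells and early thymocytes are not killer cells, while anaplastic large cell lymphoma (ALCL) in patients is known for cytotoxic granule proteins such as granzyme B and perforin. Here 10 genes of this programme (Gzma, Gzmb, Gzmk, Prf1, Nkg7, Ctsw, Klrd1, Ccl5, Fasl and Ifng) were followed in a mouse model of ALCL, out of 22180 genes on the arrays. They were listed by name, and each was read from the only probe set that carries its symbol alone.

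The samples were 18 Affymetrix arrays in 6 groups of 3. Per the labels, Lck-Cre transgenic mice were irradiated sublethally and given retrovirally infected bone marrow, so that NPM-ALK, the fusion kinase of ALCL, was expressed in early T cells through Cre driven by the T cell promoter Lck. Lymphomas were taken from the thymus of moribund mice and sorted into 5 fractions, CLP (common lymphoid progenitor) and DN1 to DN4 (double-negative for CD4 and CD8), and the series design names 3 lymphomas. The controls were LSK cells, which lack lineage markers and carry SCA1 and KIT, from bone marrow of healthy wildtype mice aged 18 months, with no transgene, transplant or NPM-ALK. Tissue, age, treatment and disease therefore differ together between lymphoma and LSK and cannot be told apart. The description fields disagree with this, since they speak of old mice that are NIPA KO or wild type and, on 12 arrays, of 4 Gy, and the titles were followed. Nothing in the labels says which arrays come from separate animals, so p-values measure only the spread between these arrays.

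Signals are log2 RMA values, in which a difference of 1 is a doubling. The number of arrays limits precision. A background gauge was taken on each array as the 95th percentile of 1108 probe sets of olfactory receptor genes, of which little RNA is made outside the nose, and it lay between 5.36 and 5.71. Below it a level is not told apart from background. All 6 measured T cell markers were higher in the lymphoma, and the 4 measured stem and progenitor markers, Kit, Cd34, Meis1 and Flt3, were lower. Kit was lower as a mean over the fractions. It read 10.77 in DN1 and 10.68 in DN2, near LSK (10.90), and 9.43 in CLP, 8.06 in DN3 and 8.20 in DN4. Over all genes 13.1% were called higher and 15.8% lower. Il7r, a defining gene of common lymphoid progenitors, was lowest in CLP among the fractions (7.99, SD 0.899, n = 3), though above LSK (6.10). DN4 was next (8.51), nearer than the SD of CLP. Among the fractions, Il7r RNA therefore does not bear out the CLP label. The CLP arrays were also the least alike (r of 0.968 to 0.975 over genes, against 0.982 or more in the other groups). Among the LSK arrays, Xist read 3.55, 10.74 and 10.00 and the Y-linked gene Eif2s3y 8.42, 7.43 and 4.69, so arrays 2 and 3 differ in sex-linked RNA from array 1 and from the lymphoma arrays. With LSK array 1 as the only control, 6 of the 10 genes were again called against LSK, on the assumption that a lone array varies like the others.

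The first contrast lies inside the granzyme family. Gzma and Gzmk are neighbours on chromosome 13, with 1 gene that is not protein-coding (1700084D21Rik) between them in RefSeq, and Gzmb lies on chromosome 14. RefSeq promoters were matched for 7 of the 10 genes (not for Ctsw, Klrd1 or Ccl5). The 250 bases before the start of these 3 granzyme genes are shown because Gzma was the brightly read granzyme while its neighbour Gzmk and its relative Gzmb stayed at background in every lymphoma fraction. All are on the minus strand of GRCm38.p6 and are written 5′ to 3′ along the gene, at chr13:113100982-113101231 (Gzma), chr13:113180966-113181215 (Gzmk) and chr14:56262335-56262584 (Gzmb). Capitals mark matches on either strand to TGTGGT (the RUNX core), GGTGTG (the T-box core), TTCNNNGAA (STAT) and TGANTCA (AP-1), which do not overlap here.
Gzma: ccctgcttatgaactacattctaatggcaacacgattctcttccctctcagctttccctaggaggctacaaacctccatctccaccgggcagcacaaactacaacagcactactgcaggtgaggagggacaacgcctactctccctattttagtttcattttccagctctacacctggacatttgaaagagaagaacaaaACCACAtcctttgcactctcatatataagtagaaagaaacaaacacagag
Gzmk: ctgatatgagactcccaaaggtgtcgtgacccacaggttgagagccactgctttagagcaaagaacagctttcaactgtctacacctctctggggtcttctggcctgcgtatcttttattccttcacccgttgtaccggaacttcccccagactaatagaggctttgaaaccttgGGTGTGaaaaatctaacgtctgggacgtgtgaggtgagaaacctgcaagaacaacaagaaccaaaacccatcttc
Gzmb: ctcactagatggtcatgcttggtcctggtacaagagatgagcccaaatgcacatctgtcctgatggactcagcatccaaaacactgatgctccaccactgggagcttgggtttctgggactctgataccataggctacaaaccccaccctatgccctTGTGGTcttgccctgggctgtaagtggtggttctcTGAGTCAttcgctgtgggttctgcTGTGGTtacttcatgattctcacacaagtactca

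The Gzma window holds 1 RUNX core, in its reverse form, and none of the other motifs. Gzmk holds 1 T-box core, and Gzmb holds 2 RUNX cores and 1 AP-1 motif. Over the 7 promoters matched, 4 hold a RUNX core, 3 a T-box core, 2 a STAT motif and 1 an AP-1 motif. Among all 32851 promoter windows of the same length in the table, 14% hold the RUNX core, 16.3% the T-box core, 7.02% the STAT motif and 6.75% the AP-1 motif. These matches are a description of the letters and not of binding.

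Gzma, which encodes granzyme A, a trypsin-like granule protease, was at a high level on every lymphoma array and at background in LSK. LSK arrays 1 to 3 read 4.49, 4.04 and 4.62. CLP arrays read 11.69, 11.87 and 12.17, and DN1 arrays 12.04, 11.55 and 11.58. DN2 arrays read 11.79, 11.41 and 12.03, DN3 arrays 11.73, 11.30 and 11.79, and DN4 arrays 11.16, 11.04 and 11.56. Lymphoma and LSK thus lay far apart, and the fractions overlapped except that all DN4 arrays were below all CLP arrays. Against LSK, the mean of the lymphoma fractions was higher by log2 7.26 (SE 0.164, limma adjusted p = 4.20e-09, 3 against 3 values). Because LSK was at background, the size of the difference is a bound: at least 73.5-fold, or log2 6.20, when each LSK array is set to its gauge. By fraction the log2 difference ran from 6.87 (DN4) to 7.52 (CLP), called in all 5, with limma adjusted p from 3.12e-10 to 2.37e-07.

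Gzma did not separate the fractions by the test used. The order of its means was CLP (11.91, SD 0.242), DN2 (11.74, SD 0.313), DN1 (11.72, SD 0.278), DN3 (11.60, SD 0.268) and DN4 (11.25, SD 0.270). No neighbours in that order were called different. The F test over the 15 lymphoma arrays gave adjusted p = 0.289, and 0 of 10 pairs of fractions were called by limma. The lowest adjusted p was 0.138, for CLP against DN4, whose log2 difference was 0.66 (SE 0.203, unadjusted p = 0.00504). At an unadjusted p under 0.05, 3 pairs passed, each with DN4 as the lower fraction.

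**Figure D1:**
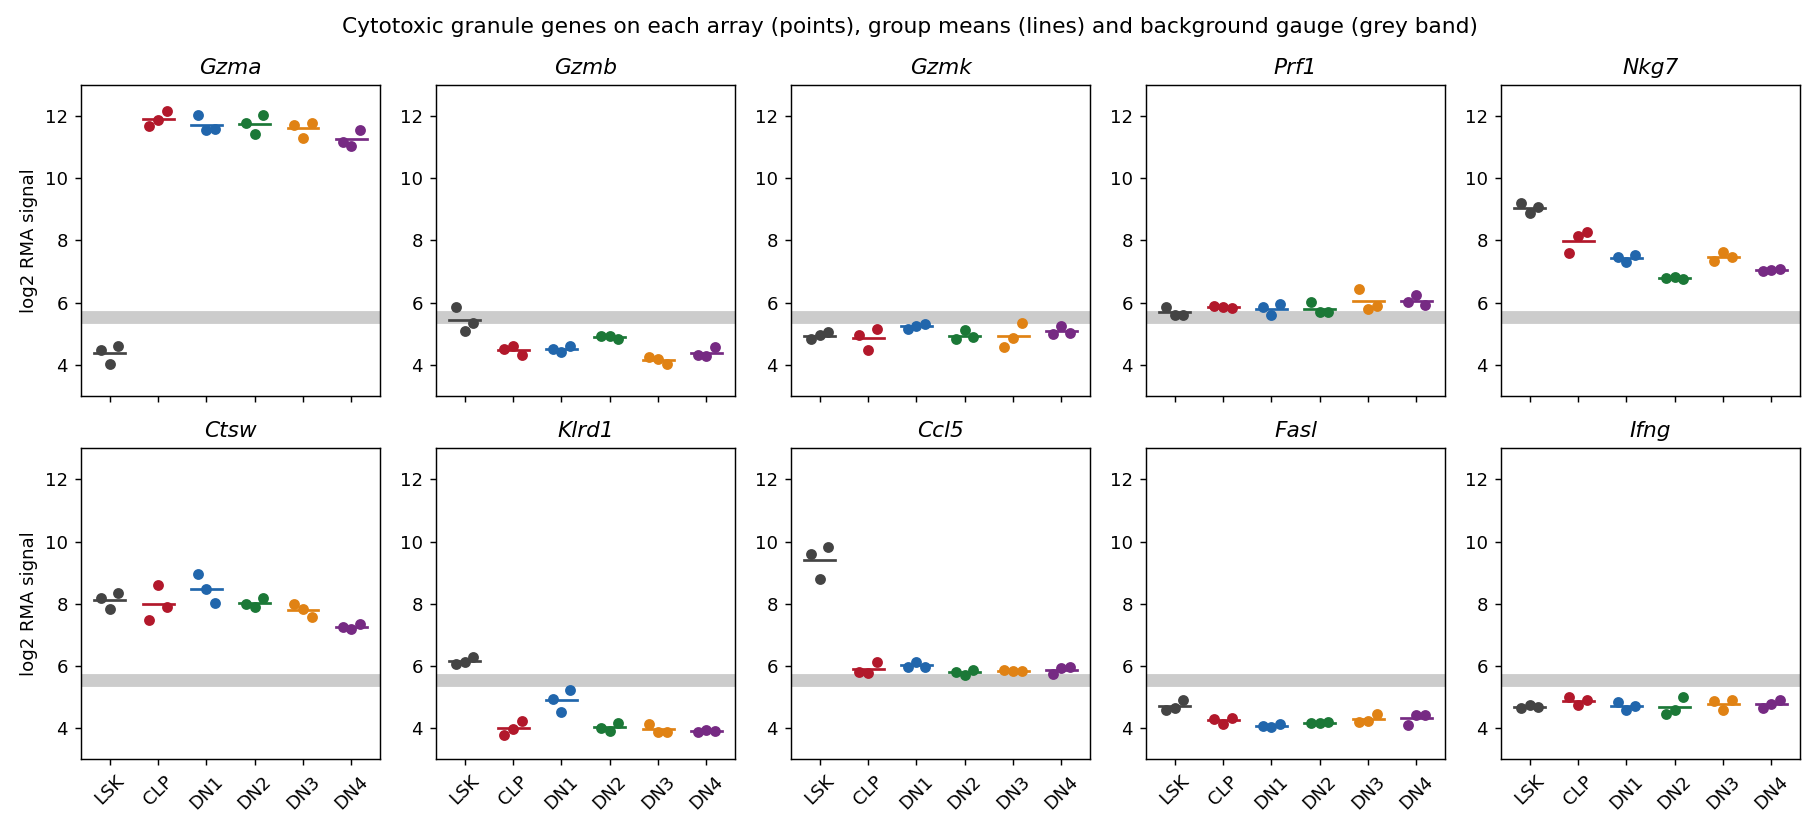
Log2 RMA signal (y axis) of the 10 cytotoxic granule genes in LSK and the 5 lymphoma fractions (x axis), with 1 point per array, a line at each group mean, and a grey band from the lowest to the highest background gauge (5.36 to 5.71). Gzma sits at 11.04 to 12.17 in the lymphoma and below the band in LSK, while Ccl5, Nkg7 and Klrd1 are highest in LSK.

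Of the other granzymes measured on a probe set of their own, only Gzmm was above the gauge in the lymphoma. Gzmb encodes granzyme B, the caspase-activating granzyme. It read 5.85, 5.09 and 5.36 on LSK arrays 1 to 3, and only array 1 was above its gauge. The 15 lymphoma arrays ran from 4.04 through a median of 4.51 to 4.93, all under the gauge and all under the LSK arrays. The test called Gzmb lower (log2 -0.94, SE 0.171, limma adjusted p = 0.00248), and with LSK array 1 alone the log2 difference was -1.36, but with both groups mostly at background no fold is given. In DN2 this call ended without any of DN2 arrays 1, 2 or 3 (adjusted p = 0.0948, 0.101 and 0.122) or without LSK array 1 (0.138) or 3 (0.0517). Gzmk, a granzyme of memory-type T cells, was under the gauge on all 18 arrays, at 4.48 to 5.35 in the lymphoma and 4.82 to 5.05 in LSK, with overlapping groups (log2 0.07, SE 0.109, limma adjusted p = 0.695). Of the 7 other granzyme genes 6 had a probe set of their own, and 5 of them (Gzmc, Gzmd, Gzmf, Gzmg and Gzmn) were under the gauge on all 18 arrays. Gzmc was called lower (limma adjusted p = 0.00631) between levels that were both background. Gzmm, a granzyme of natural killer cells, was above the gauge on all 3 LSK and all 15 lymphoma arrays and read 6.31 in LSK and 6.25 in the lymphoma (SE of the difference 0.0943, adjusted p = 0.64). A probe set shared by Gzme and Gzmd was above the gauge on 0 of 18 arrays.

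Prf1, which encodes perforin, the pore-forming protein of the granule, lay just above the gauge on every array and did not separate lymphoma from LSK. It read 5.86, 5.61 and 5.60 in LSK and 5.59 to 6.43 (median 5.88) on the lymphoma arrays, so the groups overlapped. The log2 difference was 0.22 (SE 0.113, limma adjusted p = 0.175). DN4 was the fraction farthest from LSK, at 6.01, 6.26 and 5.93 (log2 0.37, SE 0.137, adjusted p = 0.0665). That comparison passed without LSK array 1 (adjusted p = 0.0496) and with a filter on dim genes (0.0451).

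Ctsw encodes cathepsin W, a cysteine protease of cytotoxic cells. It was above the gauge on all 18 arrays, and DN4 was lower than DN1 and than LSK. LSK arrays read 8.19, 7.83 and 8.35, CLP arrays 7.47, 8.59 and 7.89, and DN1 arrays 8.97, 8.46 and 8.03. DN2 arrays read 7.99, 7.89 and 8.19, DN3 arrays 7.998, 7.82 and 7.59, and DN4 arrays 7.26, 7.18 and 7.34. DN4 lay below every other array, while the other groups overlapped with LSK. Over all fractions the log2 difference from LSK was -0.21 (SE 0.137, limma adjusted p = 0.29; without LSK array 2, -0.36 and adjusted p = 0.044), and of the single fractions DN4 was called lower (log2 -0.86, SE 0.147, adjusted p = 0.00101). Between DN4 and DN1 the log2 difference was -1.23 (SE 0.245, adjusted p = 0.00375), a 2.34-fold lower level in DN4. The order of means was DN1 (8.49, SD 0.468), DN2 (8.02, SD 0.152), CLP (7.98, SD 0.566), DN3 (7.80, SD 0.206) and DN4 (7.26, SD 0.0834), and no neighbours in that order were called different. The F test gave adjusted p = 0.0333, and that call ended without DN1 array 1 or 2, or without any array of DN2 or DN4 (adjusted p from 0.0505 to 0.124).

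Nkg7, a membrane protein of cytotoxic granules that acts in their release, was lower in every lymphoma fraction than in LSK and differed among the fractions. LSK arrays read 9.21, 8.90 and 9.06, CLP arrays 7.58, 8.14 and 8.27, and DN1 arrays 7.47, 7.29 and 7.54. DN2 arrays read 6.81, 6.82 and 6.77, DN3 arrays 7.35, 7.62 and 7.46, and DN4 arrays 7.02, 7.04 and 7.08. Every lymphoma array lay below every LSK array and above the gauge. The log2 difference from LSK was -1.71 (SE 0.112, limma adjusted p = 2.79e-06), a 3.26-fold lower level, and by fraction it ran from -2.26 in DN2 to -1.06 in CLP.

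Among the fractions Nkg7 had the smallest F test p of the 10 genes (adjusted p = 0.000449). It was lower in DN2 than in CLP by log2 -1.20 (SE 0.156, adjusted p = 0.000206), or 2.29-fold, and lower in DN4 than in CLP by -0.95 (adjusted p = 0.00631). From DN2 to DN3 it was higher by 0.68 (adjusted p = 0.0235), a call that ended without any 1 of the 3 DN2 arrays or without DN3 array 2 or 3 (adjusted p from 0.0775 to 0.115). DN1 was lower than CLP by -0.56 (adjusted p = 0.0356), which ended without CLP array 2 or 3, DN1 array 1, 2 or 3, DN2 array 2 or 3 or DN4 array 2 (adjusted p from 0.05 to 0.132). The order of means was CLP (7.996), DN3 (7.48), DN1 (7.44), DN4 (7.05) and DN2 (6.80), with no neighbours in it called different. Without the CLP arrays the F test still called Nkg7 (adjusted p = 0.00161), over a span of 0.68.

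Klrd1 encodes CD94, the partner chain of the NKG2 receptors of natural killer cells. It was detected in LSK, at 6.05, 6.14 and 6.29, and on 0 of the 15 lymphoma arrays. DN1 arrays read 4.95, 4.52 and 5.23, and the other 12 lymphoma arrays 3.79 to 4.24. The log2 difference from LSK was -2.00 (SE 0.109, limma adjusted p = 7.47e-07), and as a bound LSK was at least 1.51-fold higher, or log2 0.59. DN1 was above CLP by log2 0.90 (adjusted p = 0.00222), and DN2, DN3 and DN4 were below DN1 by 0.87, 0.93 and 0.99 (adjusted p = 0.0114, 0.00152 and 0.000923), all between levels under the gauge, so no fold is given. The DN2 call ended without DN1 array 1 or 3 or DN2 array 1 or 2 (adjusted p from 0.0525 to 0.0846).

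Ccl5, a chemokine that draws T cells and monocytes, showed the largest fall of the 10 genes. LSK arrays read 9.62, 8.79 and 9.83, and the lymphoma arrays ran from 5.71 through a median of 5.86 to 6.13, just above the gauge on all 15. The groups were far apart, and the fractions lay close together. The log2 difference was -3.52 (SE 0.226, limma adjusted p = 2.43e-06), an 11.5-fold lower level, and it ran from -3.61 in DN2 to -3.38 in DN1. No pair of fractions was called (F test adjusted p = 0.807). Ccl5 means were 6.03 in DN1, 5.90 in CLP, 5.88 in DN4, 5.84 in DN3 and 5.80 in DN2, with SDs of 0.0188 to 0.204.

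Fasl, the death ligand for FAS, and Ifng, the interferon of killer and helper T cells, were under the gauge on all 18 arrays. Fasl read 4.59, 4.66 and 4.91 in LSK and 4.04 to 4.45 in the lymphoma, without overlap. It was called lower (log2 -0.49, SE 0.112, limma adjusted p = 0.00877) between background levels, so the call gives no change in a detected transcript. In DN3 this call ended without LSK array 1, 2 or 3 or DN3 array 1 or 2 (adjusted p from 0.0554 to 0.158). Ifng read 4.64, 4.75 and 4.69 in LSK and 4.47 to 5.00 in the lymphoma (log2 0.08, SE 0.101, adjusted p = 0.602).

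Counted together, 1 of the 10 genes was higher in the lymphoma and 5 were lower, 6 in all, where 29% of all genes were called (13.1% higher and 15.8% lower). The genes called lower were Ccl5, Klrd1, Nkg7, Gzmb and Fasl. The median log2 difference of the 10 was -0.35, against 0.05 over all genes. In 6 of them the groups did not overlap, where 44.7% of all genes did not. Against LSK, CLP had 1 of the 10 higher and 4 lower, where 17.7% of all genes were called (6.54% higher and 11.2% lower). Each DN fraction had 1 higher and 5 lower, where DN1 had 19.7% of all genes called (7.45% higher, 12.3% lower), DN2 25.4% (11.4% and 14%), DN3 24.5% (11.4% and 13.1%) and DN4 26.6% (11.8% and 14.9%). These 5 comparisons share the LSK arrays. Leaving out the CLP arrays from the lymphoma mean left 6 genes called. The filter on dim genes left 4 in that comparison, since it removes Gzmb and Fasl, which were at or near background. Among the fractions 4 of the 10 were called by the F test (7.88% of all genes), namely Nkg7, Klrd1, Gzmb and Ctsw, and 2 without DN2 array 1 or 2 or with a filter on dim genes. Of these 4, Klrd1 and Gzmb were under the gauge on every lymphoma array. Gzmb was lower in DN3 than in DN2 by log2 -0.73 (adjusted p = 0.00259), and lower in DN4 than in DN2 by -0.50 (adjusted p = 0.0444; 0.0554 with the replicate number as a block), again at background. Over the 10 pairs of fractions 11 calls were made for the 10 genes, against 7 without DN2 array 2 and 6 with the filter on dim genes. Those in DN1 against CLP were 2 (7.78% of all genes called), in DN2 against CLP 1 (2.87%), in DN4 against CLP 1 (1.07%), in DN2 against DN1 1 (1.35%) and in DN3 against DN1 1 (6.7%). There were 2 in DN4 against DN1 (5.61%), 2 in DN3 against DN2 (2.45%) and 1 in DN4 against DN2 (2.65%), and 0 by limma in DN3 against CLP (1.1%) and DN4 against DN3 (0.00451%). The call of Gzmb between DN4 and DN2 also ended without any 1 of the 3 DN2 arrays, without DN1 array 1 or 2, without any DN3 array or without DN4 array 1 or 2 (adjusted p from 0.0503 to 0.221).

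**Figure D2:**
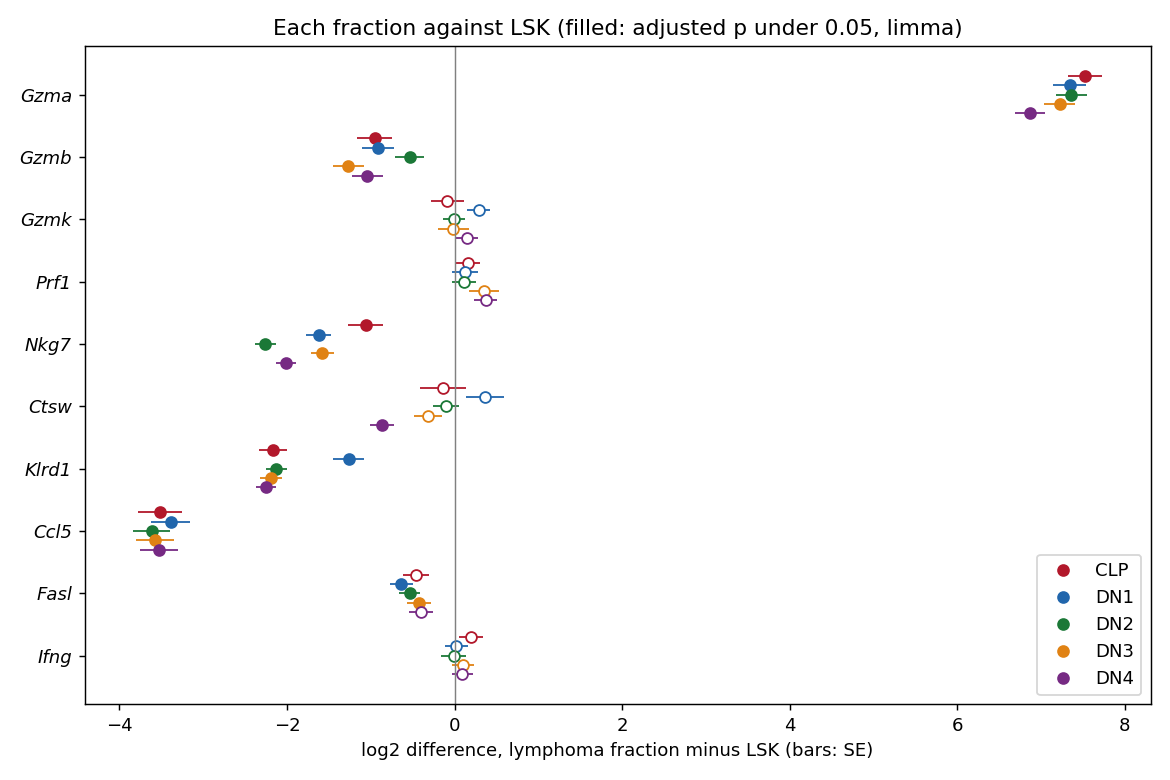
Log2 difference between each lymphoma fraction and LSK (x axis) for the 10 genes (y axis), with bars for the SE and filled points for a limma adjusted p under 0.05. Gzma lies at 6.87 to 7.52 in all fractions, Ccl5 at -3.61 to -3.38, and Nkg7, Ctsw and Klrd1 spread between fractions.

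Markers of natural killer cells were not detected in any group. All 6 measured markers (Ncr1, Klrb1c, Klre1, Klri2, Eomes and Klrc1) were under the gauge on all 18 arrays, and none was called. A change in them could therefore not be seen. Their summed level, log2 6.81 to 6.94 in LSK and 6.68 to 7.004 in the lymphoma, is a sum of background signals. Other marker lists held genes called lower too, where 15.8% of all genes were called lower and 13.1% higher. The summed levels of LSK and lymphoma lay apart for granulocyte markers and for macrophage and monocyte markers. They overlapped for B cell markers, for mast cell and basophil markers and for erythroid markers. Of 8 granulocyte markers 5 were lower in the lymphoma, with a summed level of log2 11.4 to 12.1 in LSK and 7.62 to 8.70 in the lymphoma, and Ly6g was under the gauge on all arrays. Of 6 macrophage and monocyte markers 4 were lower and 1 higher (9.35 to 9.54 against 7.75 to 8.09), with Fcgr1 under the gauge throughout. Of 5 B cell markers 2 were lower (7.60 to 8.48 against 7.14 to 7.75), and Ms4a1 was under the gauge throughout. Of 7 mast cell and basophil markers 3 were lower (Mcpt8, Prss34 and Fcer1a) and 1, Cpa3, was higher (8.41 to 9.74 against 7.80 to 10.9), with Fcer1a, Ms4a2, Mcpt4 and Cma1 under the gauge throughout. Of 2 erythroid markers 1 was lower (6.81 to 7.20 against 6.16 to 6.90). The T cell markers shared the direction of Gzma against LSK, all 6 higher (13.7 to 14.5 in the lymphoma against 7.98 to 8.22 in LSK). Among the fractions they did not follow Gzma. Their summed level was 13.7 to 13.8 in DN1 and 14.3 to 14.5 in DN4, the fraction with the lowest Gzma mean. The part of any of these in the results was not tested, and fewer cells of a type and less RNA per cell cannot be told apart in sorted bulk samples.

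Of the rest of the granule machinery, 10 of 11 genes of 1 list and 9 of 9 of another were above the gauge on all LSK and, separately, on all lymphoma arrays. Of the 11 genes of the granule matrix, granzyme processing and granzyme inhibitors, 2 were higher and 7 lower in the lymphoma (list median log2 -0.37). Over all genes 13.1% were called higher, 15.8% lower and 7.88% by the F test, which holds for the lists below too. A list count near these shares is no result about that list. Cd63, a tetraspanin of late endosomes and granules, fell most, from 11.84 in LSK to 5.72, above the gauge on 9 of 15 lymphoma arrays (log2 -6.12, SE 0.198, limma adjusted p = 2.87e-08). Srgn, which encodes serglycin, the proteoglycan that packs granzymes, fell by 1.22 to 9.22 (adjusted p = 1.18e-05). Igf2r, a mannose 6-phosphate receptor that sorts granzymes and lysosomal enzymes, rose from below the gauge on all LSK arrays (5.23) to 8.78, at least 10.1-fold or log2 3.33 against the gauge (adjusted p = 4.40e-08). None of the 11 was called among the fractions by limma's F test, where the lowest adjusted p was 0.13.

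Of 9 genes of granule exocytosis, all above the gauge on every array, 1 was higher and 4 were lower (median -0.30), where 29% of all genes were called. Rab27a, the small GTPase that docks cytotoxic granules, rose by log2 1.61 (SE 0.130, adjusted p = 1.11e-05), from 7.51 to 9.13. Snap23, a SNARE of membrane fusion, fell by 1.61 (adjusted p = 1.07e-05) and Vamp8, a vesicle SNARE, by 1.20 (adjusted p = 0.000204). Among the fractions 3 were called by the F test. Lyst, the lysosome trafficking regulator mutated in beige mice, was highest in DN1 (10.58) and lowest in CLP (9.35), with adjusted p = 0.000818. Rab27a was also highest in DN1 (9.51; adjusted p = 0.0285), and Snap23 was lowest in CLP (6.45; adjusted p = 0.0151).

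**Figure D3:**
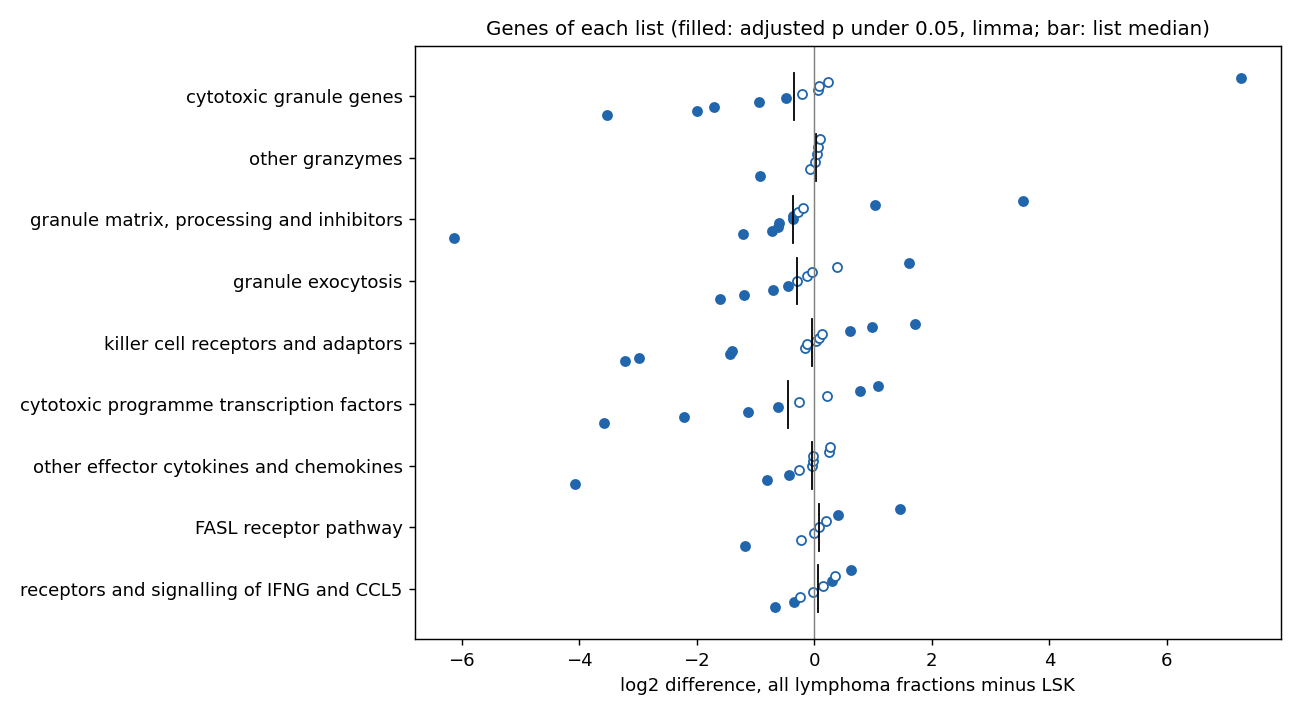
Log2 difference between all lymphoma fractions and LSK (x axis) for the genes of 9 lists (y axis), 1 point per gene, filled where the limma adjusted p is under 0.05, with a bar at each list's median. Points are fitted differences, also where 1 group is at background, as for Gzma (7.26, bound 6.20), Igf2r (3.54, bound 3.33) and Ccl3 (-4.07, at least 3.40 lower). Cd63 lies lowest, at -6.12.

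Killer cell receptors and their adaptors split, with 3 of 12 higher and 4 lower (median -0.05), where 29% of all genes were called. The signalling adaptors Tyrobp, which encodes DAP12, and Fcer1g fell below the gauge on all 15 lymphoma arrays. Tyrobp went from 8.48 in LSK to 5.26, at least 7.51-fold lower (adjusted p = 7.49e-08), and Fcer1g from 8.11 to 5.13, at least 5.80-fold lower (adjusted p = 9.24e-07). Cd160, a receptor of killer and intraepithelial lymphocytes, rose by 1.72 to 7.61 (adjusted p = 8.75e-06). Klrk1, Klrc1, Klrc2, Klrg1 and Crtam were under the gauge on all 18 arrays. Cd226, an activating receptor, was the only one of the 12 called by the F test (adjusted p = 0.00245), at 6.97 in DN1 and 5.36 to 5.66 in the other fractions.

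Transcription factors of the cytotoxic programme included 2 higher and 4 lower of 8 measured (median -0.44), where 29% of all genes were called. Bhlhe40 differed by log2 -3.58 (SE 0.196, limma adjusted p = 7.80e-07), Nfil3, which acts in natural killer cell development, by -2.22 (adjusted p = 0.00138) and Runx3, a factor of CD8 T cell identity, by -1.14 (adjusted p = 9.62e-06). Among the fractions 4 of the 8 were called. Bhlhe40 was at 7.70 in DN1 and 6.08 in DN4 (F test adjusted p = 3.48e-05), Runx3 at 7.94 and 6.73 (adjusted p = 9.93e-05) and Prdm1, which encodes BLIMP1 and was above the gauge on 7 of 15 lymphoma arrays, at 5.97 and 5.18 (adjusted p = 0.0292). DN1 had the highest and DN4 the lowest mean of these 3, as for Ctsw, but the DN4 mean of Prdm1 lay under the lowest gauge (5.36). Stat4, named to complete the 4, was also highest in DN1 (9.61) but lowest in DN3 (8.87), with DN4 at 9.13 (F test adjusted p = 0.0418). Tbx21, which encodes T-bet and is named after its values were seen, read 5.87 in the lymphoma and 5.65 in LSK (adjusted p = 0.223), and Eomes was under the gauge on every array.

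Of 9 other effector cytokines and chemokines 0 were higher and 3 lower by limma (median -0.04), near the 29% of all genes called. Ccl3, a chemokine of the same CC class as Ccl5, fell from 8.97 in LSK to 4.90, under the gauge on all 15 lymphoma arrays, and so was at least 10.6-fold lower, or log2 3.40 (adjusted p = 3.53e-08). Ccl4 fell by log2 0.81 to 5.77, above the gauge on 13 lymphoma arrays (adjusted p = 0.00587). Xcl1 was called lower (adjusted p = 0.0167) while under the gauge on all arrays, as were Csf2, Il2, Il10 and Il21. None of the 9 was called among the fractions by limma's F test, where the lowest adjusted p was 0.284.

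On the receiving side, 2 of 7 genes of the FAS pathway were higher and 1 lower (median 0.07), where 29% of all genes were called. Fas, the receptor for FAS ligand, rose by log2 1.46 (SE 0.110, adjusted p = 7.07e-06), from 5.81 in LSK to 7.27, and Casp8, the caspase it activates, by 0.41 (adjusted p = 0.0101). Tnfrsf10b, the mouse TRAIL receptor, fell by 1.18, to a level above the gauge on 7 of 15 lymphoma arrays (adjusted p = 0.000561). Fas differed among fractions, at 8.48 in DN1, 7.51 in DN2, 7.23 in CLP, 6.67 in DN4 and 6.49 in DN3 (F test adjusted p = 0.000109). Bid, the BCL2 family protein cleaved by caspase 8 and granzyme B, ran from 6.95 in DN1 to 7.90 in DN4 (adjusted p = 0.000204), and Cflar, which encodes the caspase 8 inhibitor FLIP, from 7.82 in CLP to 8.55 in DN1 (adjusted p = 0.0219).

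Of 8 genes that receive or relay interferon gamma and CCL5 signals, 2 were higher and 2 lower (median 0.06), where 29% of all genes were called. Irf1, an interferon-induced factor, rose by log2 0.63 (adjusted p = 0.00241), whereas Ifngr2, a chain of the interferon gamma receptor, fell by 0.68 (adjusted p = 0.000767) and Jak2, its kinase, by 0.35 (adjusted p = 0.0344). The CCL5 receptor genes Ccr1 and Ccr3 were under the gauge on all arrays. Socs1, the feedback inhibitor of interferon signalling, ran from 8.74 in DN1 to 7.20 in DN4 (F test adjusted p = 2.37e-06), Ifngr1 from 9.58 in DN1 to 8.90 in DN4 (adjusted p = 0.00245), and Jak2 from 9.41 in DN1 to 8.64 in CLP (adjusted p = 0.0197).

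Genes with a pattern like that of Nkg7 and Gzma were looked for over the 15 lymphoma arrays, among genes whose highest fraction mean was above the gauge and whose fraction means spanned at least 1 log2 unit. The arrays share fractions and, with 3 lymphomas named in the design, lymphomas too, so the correlations are descriptions. Of 800 genes, Cpa3, a carboxypeptidase of mast cells and some progenitors, was most like Nkg7 (Pearson r 0.814, Spearman rho 0.771), followed by Ifitm2 (r 0.77), Ociad2 (0.767), Calml4 (0.716) and Trnp1 (0.70). Cpa3 was at 10.18 in CLP and 7.21 in DN2, the same ends as Nkg7. With the fraction means removed, the correlation of Cpa3 and Nkg7 was 0.0523, so the likeness lies in the fraction means. Cpa3 is on the list of 7 mast cell and basophil markers, and the other 6 were under the gauge on all 15 lymphoma arrays. Of 801 genes, Insl6, an insulin-like peptide, was most like Gzma (r 0.859, rho 0.843), followed by Ctla2a (0.771), S100a1 (0.751), Plac8 (0.748) and Acadl (0.738). Insl6 was at 7.19 in DN1, 7.14 in DN2, 7.09 in CLP and 5.85 in DN4, so it shared the lowest but not the highest fraction with Gzma. With fraction means removed its r with Gzma was 0.792. In LSK, where Gzma was at background, Insl6 read 6.83 and Ctla2a 12.51, so the likeness holds over the lymphoma arrays and not across LSK.

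**Figure D4:**
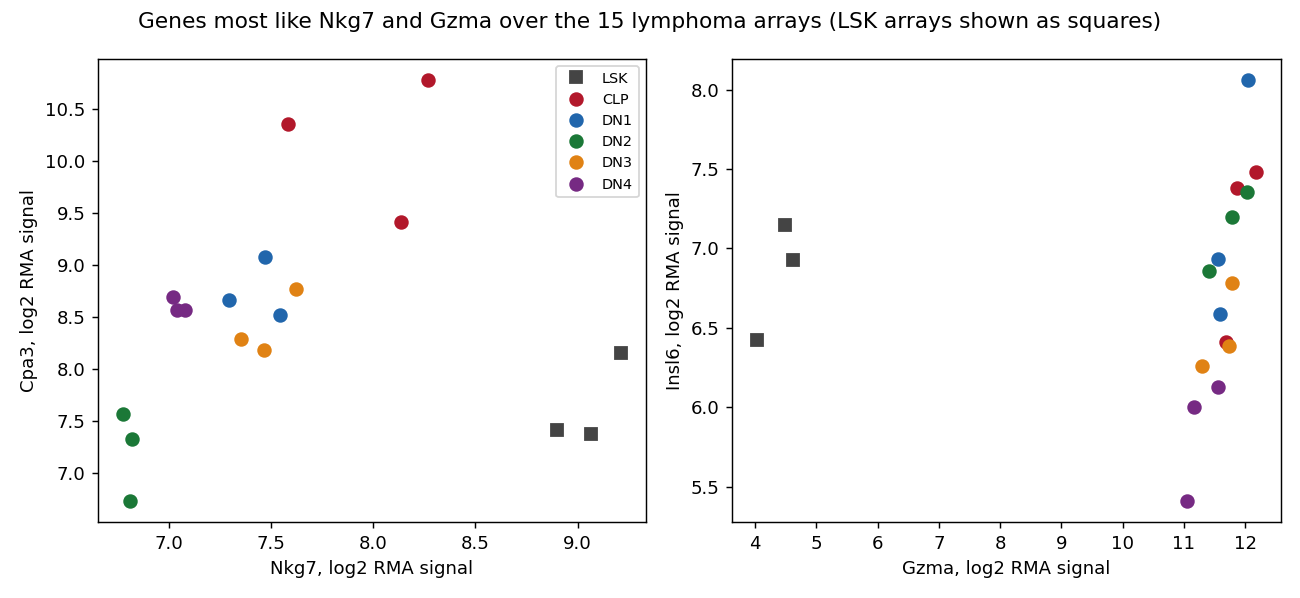
Log2 RMA signal of Cpa3 against Nkg7 (left) and of Insl6 against Gzma (right), with 1 point per array and LSK arrays as squares. Over the 15 lymphoma arrays r is 0.814 and 0.859, and the LSK arrays lie away from both trends.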

How the data were processed

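Biotin-labelled RNA from 18 sorted samples (RNeasy Micro extraction, WT Pico amplification, per the labels' protocols) was read on Affymetrix arrays. The authors deposited log2 signals of each probe set, and oligo and RMA are named in the submitters' processing notes. The build and tool versions are not given in the sources used here. No further normalization was applied. RMA sets all arrays to 1 distribution, so changes shared by most genes are not seen. Of 41345 probe sets 23521 carried 1 gene symbol, and the brightest by the mean over all arrays stood for each of 22180 genes.

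Tests used limma 3.58.1 in R 4.3.3 (lmFit and eBayes, with two-sided p-values adjusted by Benjamini-Hochberg across the 22180 genes and called under 0.05). All lymphoma fractions against LSK used the mean of the 5 arrays of each replicate number, 3 values against 3 LSK arrays. Single fractions used 3 against 3 arrays, and the F test and the 10 pairs of fractions used 1 model of the 15 lymphoma arrays. SE is limma's. Bounds compare the brighter mean with the higher of gauge and signal on each dimmer array. The 10 genes and the other lists were chosen with earlier results of these data known. All 10 genes are described, and of each other list up to 3 genes with the smallest p against LSK and up to 3 called by the F test. The tests were tested on simulated data. Alternatives were a filter on dim genes, quantile normalization, the mean of probe sets, a robust prior with a trend, 1 model of all 18 arrays, a block for the replicate number, and each array left out in turn. Leaving out CLP and using LSK array 1 alone were chosen after seeing the data.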

Additional observations from a re-analysis of the deposited data

Results flagged for a closer look

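For 4 genes the difference from LSK itself differed between lymphoma fractions by limma's F test. Nkg7 spanned 1.20 log2 units between the highest and lowest fraction mean (adjusted p = 0.000449, highest in CLP on 3 of 3 arrays against DN2), and Ctsw 1.23 (adjusted p = 0.0333, DN1 above DN4 on 3 of 3 arrays). Klrd1 spanned 0.988 (adjusted p = 0.00262) and Gzmb 0.732 (adjusted p = 0.0127), both under the background gauge on every lymphoma array. Groups of 3 arrays are too small to look for a stray array.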

How the results depend on the processing

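Of 1135 values recomputed for 81 single-gene results, 1063 kept their direction and side of the threshold, 48 lost the call, 7 gained it and 17 changed sign, and no sign change was in a called result. For pairs of fractions only the 11 results called at first were recomputed gene by gene, so gained pair calls are not in these counts. Gzma, Nkg7, Klrd1 and Ccl5 kept their calls against LSK in all lymphoma fractions and in each fraction under every alternative run. Signs changed for Ifng in DN1 under quantile normalization (log2 -0.0407), and otherwise only on leaving out 1 array, for Gzmk (all fractions, CLP, DN2 and DN3), Ifng (DN1 and DN2) and Ctsw (CLP and DN2), with ranges of -0.00132 to 0.121 for Gzmk over all fractions, -0.228 to 0.106 in CLP, -0.0951 to 0.0507 in DN2 and -0.223 to 0.159 in DN3, -0.0495 to 0.0871 for Ifng in DN1 and -0.171 to 0.0947 in DN2, and -0.442 to 0.119 for Ctsw in CLP and -0.244 to 0.0128 in DN2.

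The filter on dim genes left 2 of the 10 genes called by the F test in place of 4, because it removes Gzmb and Klrd1 from that test. Over the pairs of fractions it gave 6 calls in place of 11. Gzmb and Klrd1 had made 2 and 4 of the 11, and Nkg7 and Ctsw 4 and 1, so the 6 include a call not made at first. For CLP against LSK 3928 genes were called, 6140 with all 18 arrays in 1 model, and 2559 to 4598 on leaving out 1 array, lowest without LSK array 1. Leaving out 1 array gave 2 to 4 genes of the 10 by the F test and 7 to 14 calls over the pairs, and 5669 to 10897 calls over the pairs for all genes (7004 with all arrays, highest without CLP array 1). The cause was not tested.

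The labels do not tie same-numbered arrays together, and not every same-numbered pair of arrays deviated together. Of 30 correlations of deviations from group means between same-numbered arrays, 21 were above 0.1 (median 0.121, against -0.073 for different numbers). Deviations from a group mean cancel within the group, so the value for different numbers is not a separate comparison. In 20 of 30 the own number correlated best among the 3 numbers, a hint from the data that numbers are shared. The F test, the pairs of fractions and the single fractions against LSK still took the arrays as separate and unpaired. The test of all fractions against LSK instead used means over each replicate number, so the numbers served as units there. The design names 3 lymphomas for the 15 lymphoma arrays, so arrays share lymphomas whatever the numbers mark. The p-values of the F test and of the pairs do not account for that. With the replicate number as a block Fasl in DN4 against LSK passed (limma adjusted p = 0.0414) and Gzmb between DN4 and DN2 did not (0.0554). No other call changed among the single-gene results recomputed, which leave out pairs of fractions that were not called at first.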
